A study of Mus musculus with 9 samples.

Results

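Heat shock proteins are molecular chaperones, and 10 of their genes are described here across 9 mouse pancreas tumours: the HSP70 family genes Hspa1a, Hspa1b, Hspa8 and Hspa5, the HSP90 genes Hsp90aa1 and Hsp90ab1, the small heat shock protein gene Hspb1, the HSP110 gene Hsph1, the HSP40 gene Dnajb1 and the mitochondrial HSP10 gene Hspe1. The members were taken by gene symbol, with no measured value in the rule. Of the 45281 probes on the array, 17 carried the symbol of a member, and 9 of the 10 members had at least 1 probe. No probe carried the symbol Hsp90ab1, which was not analysed here. Of the 11537 genes that entered the tests, 8 were members, since Hspa1b did not pass the filter on dim probes.

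RNA from 9 spontaneous pancreas tumours was hybridised to Illumina bead arrays, 1 array per tumour and 1 tumour per mouse. The tumours fell into 3 genotypes with 3 mice each. KPC tumours had intact Twist and Snail, KPC;TwistcKO tumours lacked Twist in the pancreas and KPC;SnailcKO tumours lacked Snail in the pancreas, written below as Twist cKO and Snail cKO. Both cKO groups carried the KPC background, a widely used mouse model of pancreatic cancer that relies on Cre in pancreatic cells. The labels give neither the exact alleles, nor the promoter that drives Cre, nor the age of the mice, and no treatment besides spontaneous tumour growth. The labels name 3 mice per group where the design text of the series speaks of 2, and all 9 labelled tumours were used.

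Chaperones bind unfolded stretches of other proteins and let them fold, cross a membrane or be degraded. HSP70 proteins bind and release clients in an ATP-driven cycle that HSP40 proteins such as Dnajb1 start and HSP110 proteins such as Hsph1 reset, and HSP90 proteins take over late folding steps of many kinases and steroid receptors. Under proteotoxic stress the heat shock factors, above all HSF1, bind heat shock elements before these genes and raise their transcription, whereas Hspa5 in the endoplasmic reticulum answers to the unfolded protein response through an ER stress element. Cells of the exocrine pancreas make large amounts of secreted protein, and pancreatic cancers are known for raised chaperone levels.

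The start regions of 5 members are shown as examples of these elements: the near-identical pair Hspa1a and Hspa1b, Hspb1 and Hspe1 with heat shock elements, and Hspa5 with the ER stress element. They were picked for holding an element, which not every member did, so they do not test these routes. Each is the stretch of 250 bases before the annotated gene start in RefSeq (GRCm38.p6), read 5′ to 3′ on the gene's strand. They lie at chr17:34972157-34972406 for Hspa1a on the minus strand, at chr17:34959239-34959488 for Hspa1b on the minus strand, at chr5:135887669-135887918 for Hspb1 on the plus strand, at chr1:55087898-55088147 for Hspe1 on the plus strand and at chr2:34771840-34772089 for Hspa5 on the plus strand. Capitals mark the short heat shock element in the first 4 sequences and the ER stress element in the Hspa5 sequence.
Hspa1a upstream: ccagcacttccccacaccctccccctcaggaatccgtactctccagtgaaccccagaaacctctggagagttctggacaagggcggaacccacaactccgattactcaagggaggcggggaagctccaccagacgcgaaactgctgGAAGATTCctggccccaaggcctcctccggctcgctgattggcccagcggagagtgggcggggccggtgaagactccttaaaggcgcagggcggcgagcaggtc
Hspa1b upstream: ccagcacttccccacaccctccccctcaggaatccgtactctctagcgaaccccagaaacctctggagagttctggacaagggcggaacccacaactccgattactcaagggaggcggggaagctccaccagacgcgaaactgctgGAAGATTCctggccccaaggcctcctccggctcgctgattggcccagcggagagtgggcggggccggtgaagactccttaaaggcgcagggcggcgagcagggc
Hspb1 upstream: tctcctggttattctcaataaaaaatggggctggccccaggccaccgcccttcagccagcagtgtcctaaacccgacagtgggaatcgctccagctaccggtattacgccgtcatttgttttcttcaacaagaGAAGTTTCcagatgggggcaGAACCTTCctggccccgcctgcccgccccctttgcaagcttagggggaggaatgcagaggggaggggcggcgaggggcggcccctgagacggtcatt
Hspe1 upstream: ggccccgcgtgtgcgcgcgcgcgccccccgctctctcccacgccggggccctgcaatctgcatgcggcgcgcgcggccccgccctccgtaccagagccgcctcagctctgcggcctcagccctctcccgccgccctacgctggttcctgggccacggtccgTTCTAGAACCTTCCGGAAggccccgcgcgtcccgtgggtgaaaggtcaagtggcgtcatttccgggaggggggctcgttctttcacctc
Hspa5 upstream: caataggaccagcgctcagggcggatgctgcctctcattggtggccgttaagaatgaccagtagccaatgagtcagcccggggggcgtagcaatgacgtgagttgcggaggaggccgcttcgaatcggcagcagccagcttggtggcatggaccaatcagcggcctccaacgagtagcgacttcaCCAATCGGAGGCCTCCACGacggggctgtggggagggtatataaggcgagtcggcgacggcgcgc
The Hspa1a and Hspa1b stretches differed at 3 of 250 bases (98.8% identical), and each held the same short element, GAAGATTC, 104 bases before the start. The other members matched in the sequence tables were Hsph1 and Dnajb1, 7 of 10 in all.

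The motifs were searched on both strands in windows from 250 bases before to 50 bases after the start of each gene. The short heat shock element was TTCNNGAA or GAANNTTC, and 15.1% of all 32851 windows held it. It occurred 3 times for Hspe1, 3 times for Hsph1, 2 times for Hspb1 and 1 time each for Hspa1a and Hspa1b, and it did not occur in the windows of Dnajb1 and Hspa5. The longer element, 3 alternating TTC and GAA units each 2 bases apart, contains the short form. It was in 0.603% of windows and was matched 2 times for Hspe1 and 1 time for Hsph1. The ER stress element was searched as CCAAT, then 9 bases of any kind, then CCACG. It was in 0.119% of windows and was matched 1 time for Hspa5, 65 bases before the start. CCAAT alone was in 37.4% of windows.

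The arrays were read first for what could touch these genes. Array set 1, as it is called here, held replicate 3 of both cKO groups and all KPC arrays, with raw median intensities of 99.1 to 107.2. Array set 2 held replicates 1 and 2 of both cKO groups, with 115.4 to 125.4. Over 18399 probes not detected on any array, raw signals correlated with a median Spearman rho of 0.387 within set 1, 0.526 within set 2 and 0.239 between the sets. The sets were made by cutting a clustering of the arrays on these same correlations into 2. The higher rho within sets is therefore no separate evidence for them. The labels name no such sets. Since no KPC array lay in set 2, some differences are also given from a fit that blocks on the set. Detected probes numbered from 16707 to 19606 per array. Of the targeted genes, Twist1 lay at 4.60 to 5.23 on the normalised log2 scale in Twist cKO tumours and at 7.25 to 9.19 in KPC tumours. In Snail cKO tumours Twist1 lay at 8.66, 4.65 and 7.56, so Snail cKO replicate 2 was as low as the Twist cKO tumours. Snai1 lay at 6.08 to 7.79 in Snail cKO and at 6.89 to 7.91 in KPC tumours, so its level did not separate the groups. A probe outside the deleted part would not check the deletion, and where this probe lies was not analysed here. Marker levels of 9 duct and epithelial genes, as the median distance from each gene's mean, were -2.74 in KPC replicate 1 and -5.51 in Twist cKO replicate 2 and lay between 0.0083 and 1.86 in the other tumours. Twist cKO replicate 2 also stood apart in lymphocyte and adipocyte markers, with the same measure at 5.67 for 2 T cell genes, 4.93 for 3 B and plasma cell genes and 4.65 for 4 adipocyte genes. Snail cKO replicate 2 was next in all 3 lists, at 1.15, 2.23 and 0.32, and every other tumour was below 0. In bulk tumour RNA, fewer cells of a type and less RNA per cell cannot be told apart.

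No member passed the adjusted threshold in any comparison. Hspa1a was the one member with an unadjusted p under 0.05, which it lost in several alternatives given below, with a mean 2.51-fold higher in Twist cKO and 2.21-fold higher in Snail cKO than in KPC tumours. Hsp90aa1 had the next largest differences from KPC, with lower means in both cKO groups. Dnajb1, Hspe1 and the brightest Hspa8 probe differed from KPC by at most 0.26 log2 in either cKO group, while the other Hspa8 probes ran from -0.36 to 0.57 log2.

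Hspa1a encodes the stress-inducible cytosolic HSP70, which many cells hold at a low level until stress. On the normalised log2 intensity scale it measured 5.65, 7.02 and 6.61 in the KPC tumours, 7.87, 8.20 and 7.18 in the Twist cKO tumours and 7.55, 8.03 and 7.13 in the Snail cKO tumours. All 6 cKO tumours lay above all 3 KPC tumours, with KPC replicate 1 lowest and Twist cKO replicate 2 and Snail cKO replicate 2 highest. By the median distance from each gene's mean, those 2 tumours were also the highest in T cell, B and plasma cell and adipocyte markers. The adipocyte list did not go 1 way in Snail cKO replicate 2. Its summed linear level there was 1166, against 1507 to 2235 in KPC, and its gene Lpl was the lowest of all tumours at 9.55. The part of these cell types in the Hspa1a level was not tested. The group means of Hspa1a were 6.43 ± 0.70 (SD, n = 3) in KPC, 7.75 ± 0.52 (SD, n = 3) in Twist cKO and 7.57 ± 0.45 (SD, n = 3) in Snail cKO. The raw intensities of the same probe were 129.3, 176.5 and 160.3 in KPC, 373.0, 406.5 and 219.1 in Twist cKO and 293.8, 408.3 and 224.4 in Snail cKO tumours. Within both cKO groups, replicate 3, the array of set 1, was the lowest.

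Twist cKO minus KPC was 1.33 log2 for Hspa1a (SE 0.44, 95% interval 0.33 to 2.32) and had a limma p of 0.015 before and 0.978 after adjustment. Snail cKO minus KPC was 1.15 log2 for Hspa1a (SE 0.44, 95% interval 0.15 to 2.15) and had a limma p of 0.029 before and 1.00 after adjustment. In a two-sided exact permutation test each difference had p = 0.10, and 3 against 3 tumours can reach no smaller value. Snail cKO and Twist cKO differed by -0.18 log2 (SE 0.44), and their ranges overlapped. In a contrast added after the values were seen, the mean of both cKO groups minus KPC was 1.24 log2 (SE 0.38, adjusted limma p 0.999). The comparisons with KPC share the KPC tumours, so they are not separate evidence.

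The size of the Hspa1a difference depended on the array set, on the background correction and on KPC replicate 1. Blocking on the array set left Hspa1a 0.82 log2 (SE 0.47) higher in Twist cKO and 0.64 log2 (SE 0.47) higher in Snail cKO than in KPC tumours. Within array set 1, where each cKO group is 1 tumour, the differences of Hspa1a were 0.76 and 0.71 log2 (SE 0.65 each, from the spread of the KPC tumours and the other genes). With no background correction they were 0.74 and 0.62 log2, and without KPC replicate 1 they were 0.94 and 0.76 log2. The unadjusted limma p of Hspa1a was 0.12 in Twist cKO and 0.21 in Snail cKO against KPC in the blocked fit, and 0.054 and 0.10 without KPC replicate 1. It was 0.065 and 0.075 with array weights. It was also above 0.05 for Twist cKO without Twist cKO replicate 2, and for Snail cKO without Snail cKO replicate 1 or 2. The part of the array set in the Hspa1a values was not tested beyond these fits. Acinar cell markers had higher means than in KPC for 12 of 13 tested genes in Twist cKO (median 1.24 log2) and for 13 of 13 in Snail cKO (median 1.41 log2), although their summed linear levels overlapped, at 1158 to 4168 in KPC, 2710 to 9046 in Twist cKO and 2343 to 22847 in Snail cKO tumours. Between 4 and 13 of these 13 genes were detected per tumour. Within the cKO groups the tumours highest in Hspa1a were low in acinar markers, with medians of -1.22 log2 from the mean in Twist cKO replicate 2 and -1.50 in Snail cKO replicate 2, and Snail cKO replicate 3, the lowest of its group in Hspa1a, was the highest at 3.15. Twist cKO replicate 1, the highest of its group in acinar markers at 1.43, lay between the others of its group in Hspa1a. Within KPC the order was the other way. Replicate 2 was the highest in both, with acinar markers at 0.62, against -1.39 and -1.52 in replicates 1 and 3. Macrophage markers, 8 tested genes, lay 1.76 log2 above their means in KPC replicate 1, the tumour lowest in Hspa1a, and between -1.20 and 0.46 log2 in the other tumours. The part of either cell type in the Hspa1a level was not tested.

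**Figure D1:**
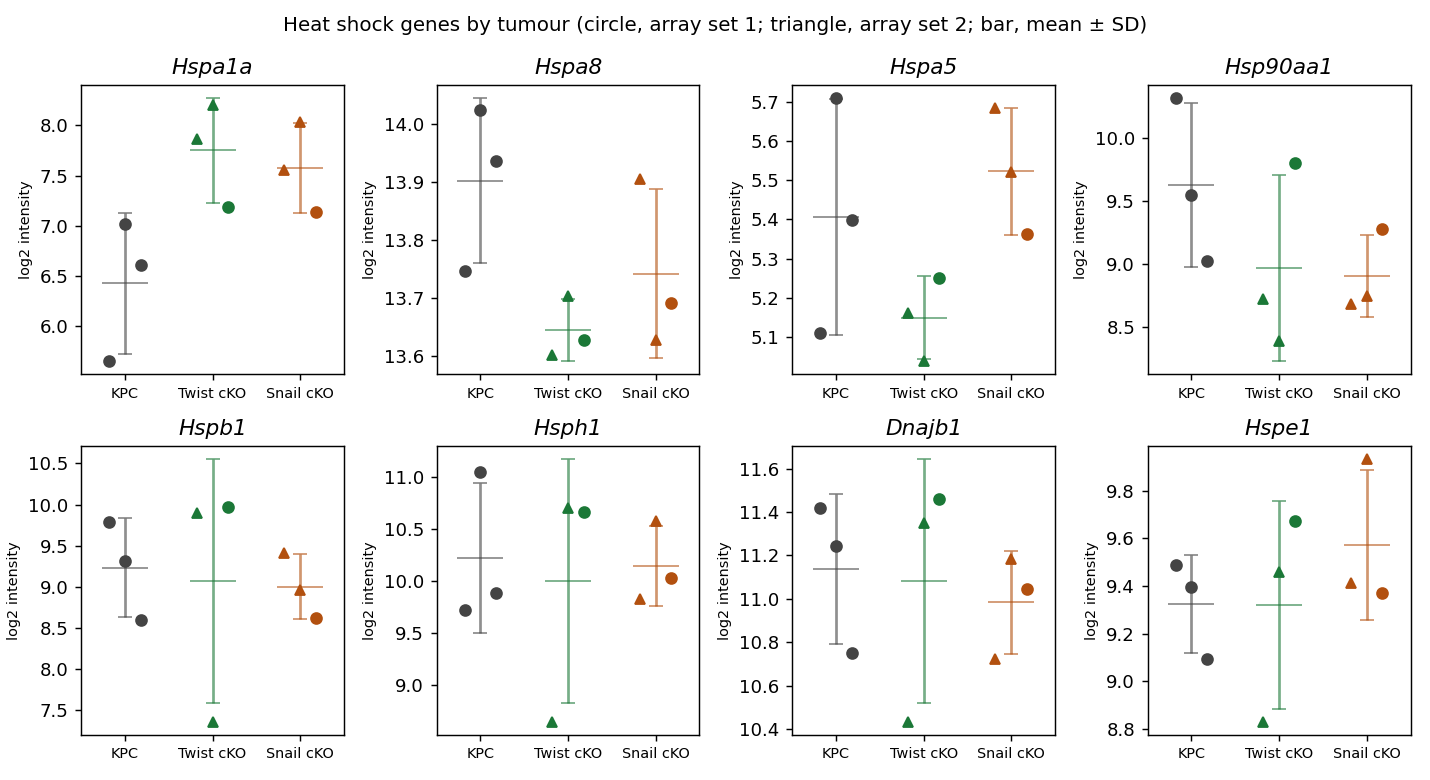
Normalised log2 intensity of the 8 tested heat shock genes in each tumour, by genotype, with circles for array set 1, triangles for array set 2 and bars for the mean ± SD of 3 tumours. For Hspa1a the 6 cKO tumours lie above the 3 KPC tumours, and within each cKO group the circle is the lowest.

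Hspa1a had 2 more probes, neither detected on any array, with raw intensities of 97.4 to 135.5 and 88.3 to 112.3. The Hspa1a values therefore rest on 1 probe. Hspa1b, the neighbouring gene with a nearly identical product, had 2 probes, each detected on 1 Snail cKO array, with raw intensities of 99.8 to 135.2 and 97.3 to 155.9. It was left out by the filter, and no level is given. Because the 2 genes are near copies, signal of 1 may reach probes of the other.

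**Figure D2:**
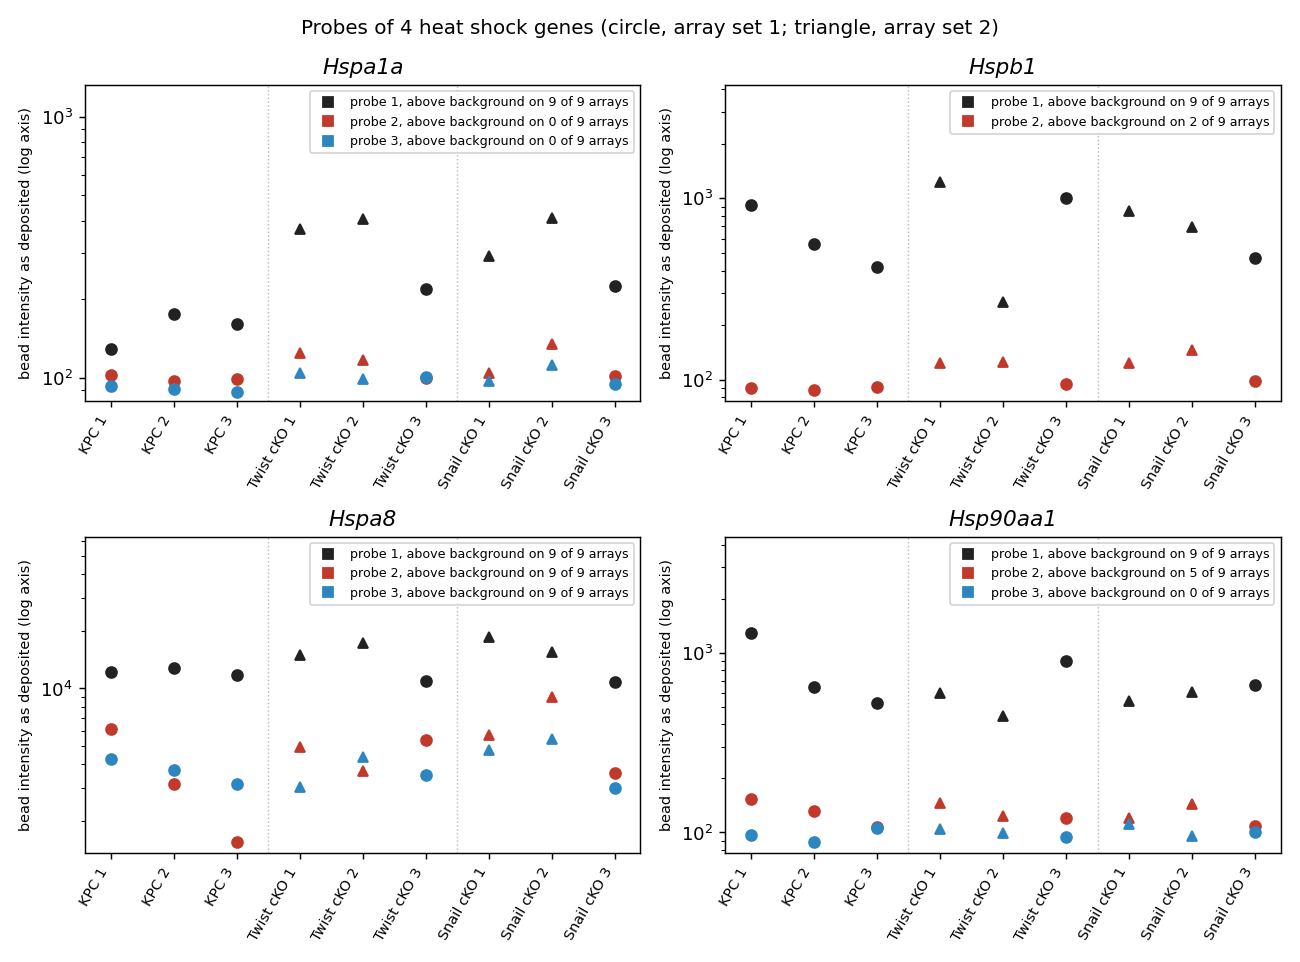
Deposited bead intensity (log axis) of each probe of Hspa1a, Hspb1, Hspa8 and Hsp90aa1 in the 9 tumours, with circles for array set 1 and triangles for array set 2; legends give on how many of 9 arrays each probe was detected. The bright Hspa1a probe runs from 129.3 to 408.3, while its other probes stay between 88.3 and 135.5.

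Hspa8 encodes the constitutive cytosolic HSP70, which also strips clathrin from vesicles and feeds chaperone-mediated autophagy. Its brightest probe measured 13.75, 14.02 and 13.94 in KPC, 13.60, 13.70 and 13.63 in Twist cKO and 13.91, 13.63 and 13.69 in Snail cKO tumours, all in log2 intensity. This probe was among the brightest, with a mean at percentile 99.6 of all tested genes, and its raw intensity spanned 1.72-fold. Quantile normalisation gave Twist cKO replicate 3 and Snail cKO replicate 2 the same value, so its narrow range on the log2 scale is not read as a steady level. The Twist cKO tumours lay below the KPC tumours without overlap, by 0.26 log2 (SE 0.22, adjusted limma p 0.978). A second probe measured 12.61, 11.94 and 10.74 in KPC, 11.95, 11.73 and 12.50 in Twist cKO and 12.21, 12.88 and 11.92 in Snail cKO tumours, with a Twist cKO minus KPC difference of 0.30 log2 (SE 0.49). The third probe gave -0.36 log2 (SE 0.29). The Hspa8 probes therefore did not share a direction, and the gap of the brightest probe also turned to 0.057 log2 when arrays were set to a common median only.

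Hspa5 encodes BiP, the HSP70 of the endoplasmic reticulum, which holds the unfolded protein sensors inactive. It measured 5.11, 5.71 and 5.40 in KPC, 5.16, 5.04 and 5.25 in Twist cKO and 5.68, 5.52 and 5.36 in Snail cKO tumours, in log2 intensity. Its probe was detected on all 9 arrays but was dim, at raw intensities of 113.4 to 152.7. The Snail cKO tumours lay above the Twist cKO tumours without overlap, by 0.37 log2 (SE 0.25, adjusted limma p 0.986), and the KPC tumours overlapped both. That difference was 0.11 log2 with no background correction, 0.17 log2 with a normexp correction at an offset of 50 and 0.11 log2 within array set 1.

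Hsp90aa1, the stress-inducible cytosolic HSP90, measured 10.32, 9.55 and 9.02 in KPC, 8.72, 8.39 and 9.80 in Twist cKO and 8.69, 8.75 and 9.28 in Snail cKO tumours, in log2 intensity. Twist cKO replicate 3 and Snail cKO replicate 3, the cKO arrays of set 1, were the highest of their groups, the reverse of Hspa1a. Its means were 0.66 log2 lower in Twist cKO (SE 0.46) and 0.73 log2 lower in Snail cKO (SE 0.46) than in KPC tumours, with adjusted limma p-values of 0.978 and 1.00. A fit with the array set as block left -0.059 and -0.13 log2, and without KPC replicate 1 the values were -0.32 and -0.38 log2. For Twist cKO the difference was -1.08 log2 without Twist cKO replicate 3, -0.37 log2 without Twist cKO replicate 2 and 0.17 log2 within array set 1. A second probe of Hsp90aa1 gave -0.53 log2 in Twist cKO and -0.84 log2 in Snail cKO against KPC (SE 0.37 each). It was detected on 5 of 9 arrays, namely 3 KPC, 2 Twist cKO and 0 Snail cKO arrays. This probe passed the filter only through groups where it was detected, so its differences are not separate evidence.

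Hspb1 encodes the small heat shock protein HSP25, which holds unfolded proteins and binds actin filaments. Its log2 intensity was 9.79, 9.31 and 8.60 in KPC, 9.89, 7.36 and 9.97 in Twist cKO and 9.41, 8.97 and 8.62 in Snail cKO tumours. Twist cKO replicate 2, the tumour with the lowest duct and epithelial markers, was the lowest, and the groups overlapped. KPC replicate 1, the other tumour low in those markers, was the highest of its group at 9.79. Twist cKO minus KPC was -0.16 log2 for Hspb1 (SE 0.68) and turned to 0.70 log2 without Twist cKO replicate 2. The part of epithelial content in the Hspb1 level was not tested.

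Hsph1, an exchange factor that resets HSP70, measured 9.72, 11.05 and 9.89 in KPC, 8.64, 10.70 and 10.66 in Twist cKO and 9.83, 10.58 and 10.03 in Snail cKO tumours, in log2 intensity. Dnajb1, which starts the HSP70 cycle, measured 11.42, 11.24 and 10.75 in KPC, 10.43, 11.35 and 11.46 in Twist cKO and 10.72, 11.18 and 11.04 in Snail cKO tumours. Hspe1, the lid of the mitochondrial HSP60 chamber, measured 9.49, 9.40 and 9.09 in KPC, 8.83, 9.46 and 9.67 in Twist cKO and 9.41, 9.93 and 9.37 in Snail cKO tumours. In raw intensity KPC replicate 3 was the lowest for Dnajb1 (1552.5) and Hspe1 (553.2), below Twist cKO replicate 1 (1779.1 and 630.2). On the normalised scale Twist cKO replicate 1 was the lowest tumour for all 3 of these genes. The groups overlapped in each, and their differences from KPC ran from -0.22 to 0.25 log2, below the SE of 0.31 to 0.60.

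In all, 1 of the 8 tested members had a higher and 7 had a lower mean in Twist cKO than in KPC tumours, with a median difference of -0.19 log2. Over all 11537 genes 56.3% had lower means there, with a median of -0.066 log2, and setting the arrays to a common median only moved the share with higher means from 43.7% to 56.2%. Under that scaling 4 of the members had higher and 4 had lower means. An unadjusted p under 0.05 was reached by 1 of 8 members and by 3.55% of all genes, and an adjusted p under 0.05 by 0 members and 0% of genes. Hspa1a was the 1 member above KPC without overlap, against 2.99% of genes, and Hspa8 the 1 below, against 5.07%.

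In Snail cKO against KPC, 3 members had higher and 5 had lower means, against 54% lower over all genes, and the members' median was -0.12 log2. Again 1 of 8 members had an unadjusted p under 0.05, against 2.7% of all genes, and 0% of genes passed the adjusted threshold. Hspa1a was above KPC without overlap, against 2.84% of genes, and 0 members were below, against 5.84%. Setting a common median only moved the share with higher means from 46% to 56.2%. Under it 4 members had higher and 4 had lower means. In Snail cKO against Twist cKO, 4 members had higher and 4 had lower means, against 52.2% higher and 47.8% lower over all genes. No member had an unadjusted p under 0.05, against 3.78% of all genes, 0% of genes passed the adjusted threshold, and Hspa5 was higher without overlap, against 4.25%, with 0 members lower without overlap, against 3.97%. In both cKO groups together against KPC, 2 members had higher and 6 had lower means, against 44.7% and 55.3% of all genes. Hspa1a was the 1 member with an unadjusted p under 0.05, against 2.88% of genes, and the 1 member whose 6 cKO tumours all lay above KPC, against 0.607%, while 0 members lay below, against 1.33%, and 0% of genes passed the adjusted threshold.

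**Figure D3:**
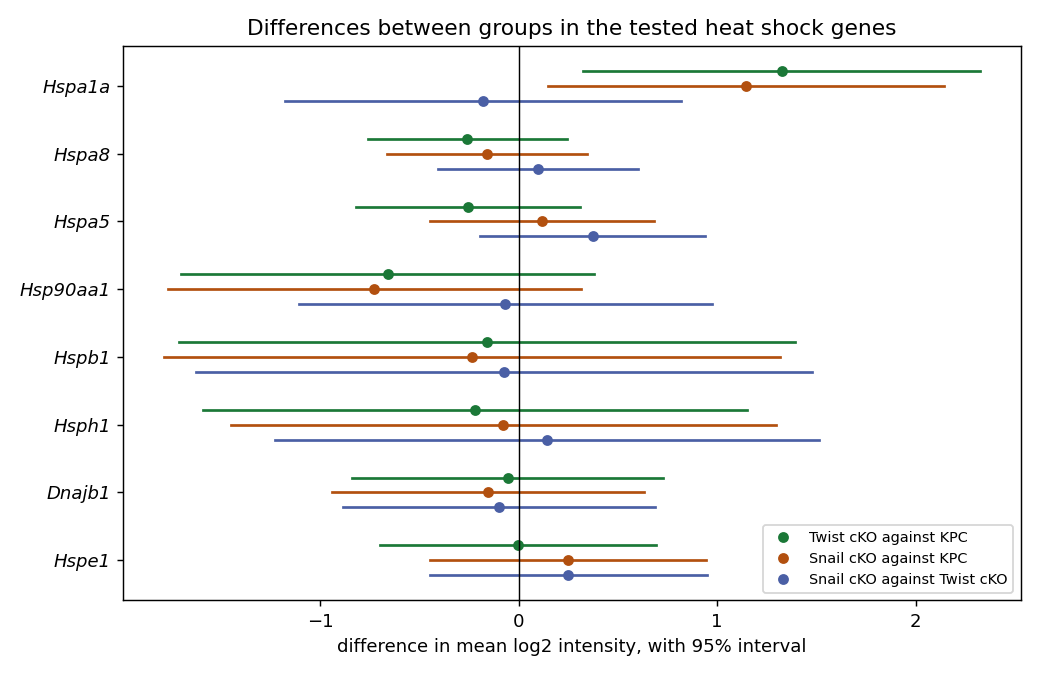
Difference in mean log2 intensity for the 8 tested heat shock genes in the 3 comparisons, with points for the limma estimate and lines for its 95% interval. The intervals of Hspa1a against KPC start at 0.33 and 0.15, and every other interval crosses 0.

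The members did not move as a block across the tumours. Over the 28 pairs of tested members the median Pearson r of log2 intensity over 9 tumours was 0.088, and 16 pairs were above 0; these tumours also share genotype and array set. Hspa1a and Hsp90aa1 ran opposite to each other, with r = -0.85 and rho = -0.78, and -0.83 once each group's mean was removed. Without the 2 tumours farthest from the median Hspa1a level, their r was -0.58. Dnajb1 and Hspe1 ran together at r = 0.75 and rho = 0.72, and Hsph1 and Dnajb1 at r = 0.76 and rho = 0.55. Without the 2 tumours farthest from the median level of the gene named first, their r was 0.59 and 0.55. Hspa8 and Hspa5 had r = 0.64 and rho = 0.46, and r = 0.48 without the 2 tumours farthest from the median Hspa8 level. This pair rests on the dim Hspa5 probe and on the brightest Hspa8 probe with its narrow range.

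**Figure D4:**
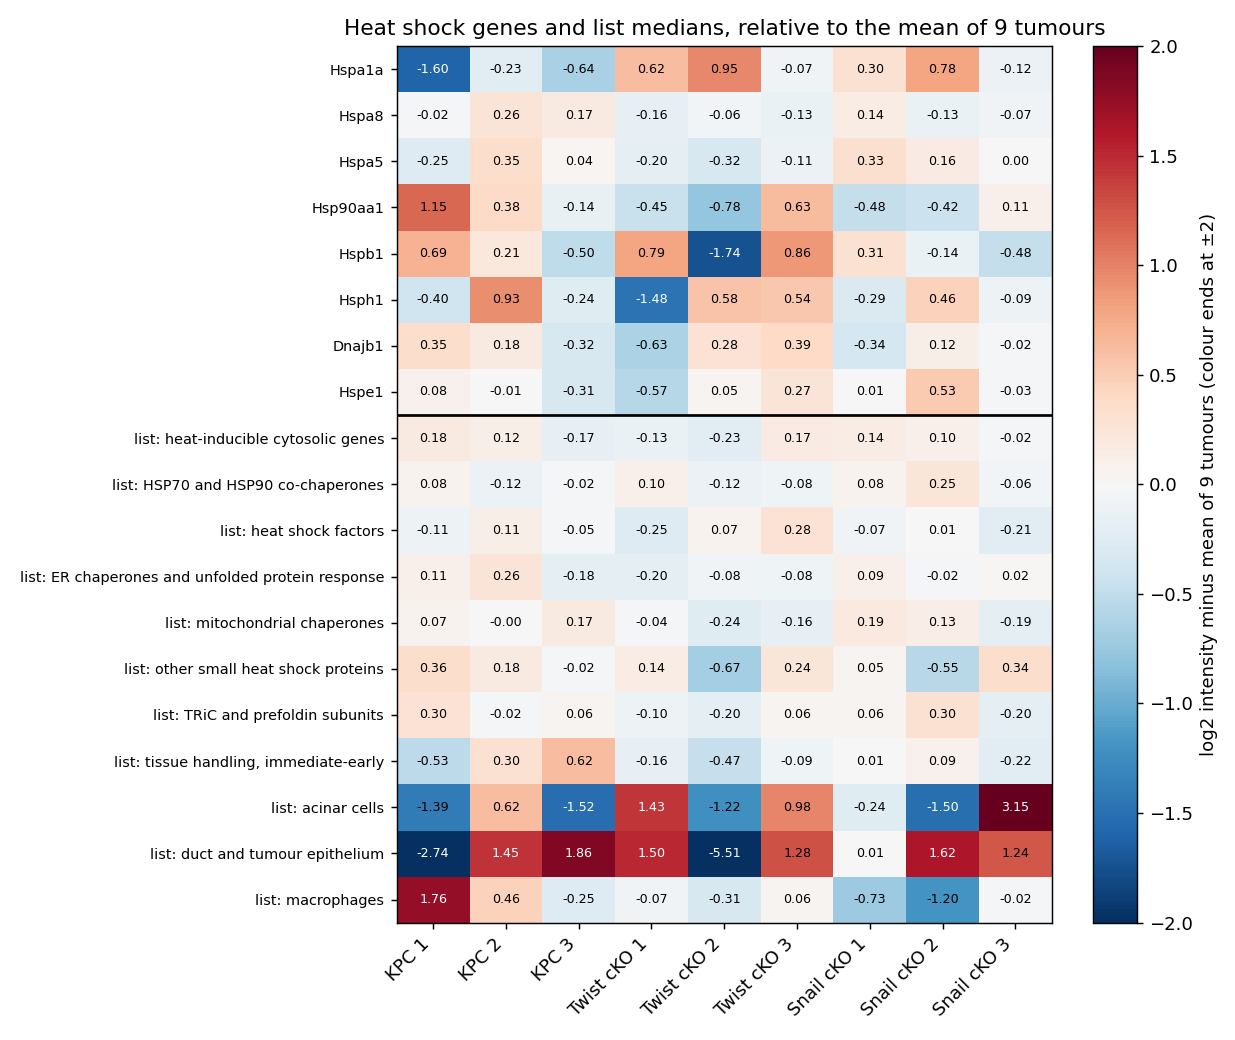
Log2 intensity of the 8 tested heat shock genes (above the line) and list medians (below it) in the 9 tumours. The lists are every chaperone list, the immediate-early list and the acinar, macrophage, and duct and epithelial marker lists. Colour and printed values give the distance from the mean of the 9 tumours, with colour ending at 2 log2 units either way. On this normalised scale Hspa1a is below its mean in all 3 KPC tumours, and Hsph1, Dnajb1 and Hspe1 are lowest in Twist cKO replicate 1.

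Among 10975 other genes, those most like Hspa1a in Pearson r over the 9 tumours were Tmem250-ps (0.957) and Limd1 (0.940). For Hsp90aa1 they were Clic1 (0.954) and Mllt1 (0.949), for Hspb1 Rhou (0.950) and Rbms1 (0.942), and for Hsph1 Marcks (0.967) and Fbrs (0.960). For Dnajb1 they were Gid8 (0.938) and Brcc3 (0.934), and for Hspe1 Pycrl (0.938) and Ppm1f (0.931). The best of so many genes over 9 tumours lies this high for every member, so these values only name neighbours.

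The wider chaperone network was read through 7 lists of 106 genes, of which 89 were tested. No listed gene passed the adjusted threshold in any comparison. In Twist cKO against KPC, 8 of the 89 had an unadjusted p under 0.05, 3 with higher and 5 with lower means, or 8.99% against 3.55% of all genes. Means were lower for 55 of the 89, against 56.3% of all genes, with a median of -0.10 log2 against -0.066 log2. In Snail cKO against KPC 1 gene reached it, or 1.12% against 2.7% of all genes. In Snail cKO against Twist cKO 2 genes did, or 2.25% against 3.78%, and 62 of 89 means were higher, against 52.2% of all genes. The list counts here and below are from the main fit only. With a common median only, the share of all genes with higher means in Twist cKO than in KPC moved from 43.7% to 56.2%. Genes named below were picked from each list for the smallest unadjusted limma p in any of the 3 comparisons, so their gaps are not separate evidence.

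Among 21 tested co-chaperones of HSP70 and HSP90, 10 had higher and 11 had lower means in Twist cKO than in KPC tumours. Over all genes 56.3% had lower means there. Ptges3, the HSP90 co-chaperone p23, measured 8.65, 9.02 and 9.03 in KPC, 7.62, 8.19 and 8.20 in Twist cKO and 8.58, 8.82 and 8.84 in Snail cKO tumours in log2 intensity. It was thus lower in every Twist cKO tumour than in any other tumour. Of all genes 5.07% lay below KPC without overlap in Twist cKO, and the share below both other groups was not counted. Twist cKO minus KPC was -0.90 log2 for Ptges3 (SE 0.26, adjusted limma p 0.978). Ppid, a cyclophilin that docks on HSP90, was likewise 0.90 log2 lower (SE 0.31, adjusted limma p 0.978). Dnajc5, the synaptic vesicle co-chaperone CSP, had means 0.76 log2 higher in Twist cKO (SE 0.30) and 0.63 log2 higher in Snail cKO (SE 0.30) than in KPC tumours, with adjusted limma p-values of 0.978 and 1.00.

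The list of endoplasmic reticulum chaperones and unfolded protein response had 25 tested genes. Of these, 18 had lower means in Twist cKO than in KPC tumours (median -0.24 log2), against 56.3% of all genes. In Snail cKO against Twist cKO, 19 had higher means (median 0.17 log2), against 52.2% of all genes. Calr, the calcium-binding lectin chaperone calreticulin, measured 10.36, 9.64 and 8.79 in KPC, 7.99, 7.68 and 9.27 in Twist cKO and 8.76, 8.95 and 9.30 in Snail cKO tumours in log2 intensity. Its Twist cKO mean was 1.28 log2 below KPC (SE 0.51, adjusted limma p 0.978), although the groups overlapped. Trib3, a pseudokinase induced by ATF4 and CHOP, lay below every other tumour in all 3 Twist cKO tumours, with Snail cKO minus Twist cKO at 1.13 log2 (SE 0.32, adjusted limma p 0.986). Over all genes 5.07% were lower in Twist cKO than in KPC without overlap, and 4.25% were higher in Snail cKO than in Twist cKO without overlap. The share that met both was not counted. Eif2ak3, the sensor kinase PERK, was 0.93 log2 higher in Twist cKO than in KPC tumours (SE 0.35, adjusted limma p 0.978), and its probe was detected on 5 of 9 arrays.

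Among 14 tested genes of the list named heat-inducible cytosolic, 9 had lower means in Twist cKO and 7 in Snail cKO than in KPC tumours. Over all genes 56.3% and 54% had lower means there, and 0 of the 14 had an unadjusted p under 0.05. That name does not hold for every gene in it. Hspd1, which is in this list, encodes the mitochondrial HSP60 that Hspe1 caps and was -0.38 log2 (SE 0.30) in Twist cKO against KPC. Of 10 mitochondrial chaperones 6 had higher and 4 had lower means in Twist cKO than in KPC tumours (median 0.066 log2). Among the lower was the mitochondrial HSP70 gene Hspa9 at -0.43 log2 (SE 0.26). Of 13 subunits of TRiC and prefoldin 10 had lower means in Twist cKO (median -0.33 log2), against 56.3% of all genes. Of 6 other small heat shock protein genes 3 were tested, and in Snail cKO against KPC Hspb6 was at 0.97 log2 (SE 0.62), Hspb2 at -0.30 log2 (SE 0.44) and Hspb7 at -0.40 log2 (SE 0.51). Of the heat shock factor list 3 of 4 genes were tested, with Hsf2 at -0.41 log2 (SE 0.29) in Twist cKO against KPC, and Hsf1 was not analysed here since no probe carried its symbol. Of 9 tested immediate-early genes, which rise during tissue handling, 7 had lower means in Twist cKO and 7 in Snail cKO than in KPC tumours. The shares over all genes were 56.3% and 54%. Median differences of the immediate-early genes were -0.36 and -0.14 log2. Their part in the chaperone levels was not tested.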

How the data were processed

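Total RNA from 9 tumours was extracted with Trizol and labelled as biotinylated cRNA for Illumina arrays, per the labels' protocols. The authors deposited a bead intensity and a detection p-value per probe and array, not normalised. GenomeStudio 5.0 is listed, with no role, in the submitters' processing notes. A second deposited table of processed intensity was, within each array, a linear rescaling of the first, on a linear scale with medians of 9.3 to 23.3 per array and no centring of genes, and was used as an alternative. Intensities were background-corrected and quantile-normalised with limma 3.58.1's neqc under R 4.3.3 (offset 16, background from the detection p-values) and put on the log2 scale. Probes with a detection p under 0.05 on at least 3 of 9 arrays were kept. Gene symbols came from the platform annotation, in which 34885 of 45281 probes had 1 symbol, 18 several and 10378 none. The brightest kept probe stood for each of 11537 genes. Levels of different probes are not comparable with each other. All 9 arrays entered 1 model of group means, tested two-sidedly with limma's moderated test at a threshold of 0.05 after Benjamini-Hochberg adjustment across every gene tested. The fit was checked on simulated data with known changes. The number of arrays limits the precision, and p-values measure the spread between tumours of separate mice. Named genes were all members, up to 3 genes per chaperone list with the smallest unadjusted p, and the 2 most similar genes per member. The members and lists were chosen with earlier results of these data known. The alternatives were other background corrections, normalisations, probe filters, probe choices, array weights, the array set as a block and leaving out tumours.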

Additional observations from a re-analysis of the deposited data

How the results depend on the processing

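No paired analysis was possible because each tumour carries a mouse number of its own. No member passed the adjusted threshold under any alternative run. Members at an unadjusted limma p under 0.05 numbered 0 to 2 in Twist cKO against KPC and 0 to 1 in Snail cKO against KPC when 1 tumour was left out. Counts of all genes passing it were 0 in every comparison and setting except when 1 tumour was left out: 0 to 3 in Twist cKO against KPC and 0 to 1 in Snail cKO against Twist cKO, the higher counts without Twist cKO replicate 1. Counts at an unadjusted limma p under 0.05 were 409 in Twist cKO against KPC, 311 in Snail cKO against KPC and 436 between the cKO groups; in the same order they were 166, 215 and 426 in the blocked fit, 810, 680 and 743 with no filter on dim probes, and 654, 778 and 439 with array weights. Hspa1a stayed higher in both cKO groups than in KPC under every alternative run. It went down to 0.71 log2 in Twist cKO without both KPC replicate 1 and Twist cKO replicate 2. In Snail cKO it went down to 0.62 log2 with no background correction. Leaving out 1 tumour gave 0.94 to 1.62 log2 in Twist cKO and 0.76 to 1.44 log2 in Snail cKO. In the main values every cKO tumour lay above every KPC tumour, so leaving out tumours or keeping only array set 1 could not turn this sign. All runs also used the same Hspa1a probe, so their shared sign is not separate evidence. Smaller differences turned sign, with the cause not tested. For Twist cKO minus KPC, Hspe1 was at 0.00077 log2 with no background correction and 0.032 with cyclic loess, and with a common median only Hspa8 was at 0.057, Dnajb1 at 0.096 and Hspe1 at 0.13. In the fit blocked on array set, Hspb1 was at 0.097, Hsph1 at 0.051, Dnajb1 at 0.16 and Hspe1 at 0.071, and within array set 1 Hsp90aa1 was at 0.17, Hspb1 at 0.73, Hsph1 at 0.44, Dnajb1 at 0.32 and Hspe1 at 0.35. Without both KPC replicate 1 and Twist cKO replicate 2, Hspb1 was at 0.97 and Hspe1 at 0.0073, with array weights Hspb1 was at 0.35, and by its second probe Hspa8 was at 0.30. For Snail cKO minus KPC, Hspa8 was at 0.024 with a common median only, 0.10 with the mean of its probes and 0.57 by its second probe. In the blocked fit Hspb1 was at 0.023, Hsph1 at 0.19 and Dnajb1 at 0.065. Hspa5 was at -0.044 within array set 1, -0.031 without both named tumours and -0.062 with array weights, and Hspb1 was at 0.044 without both. For Snail cKO minus Twist cKO, Hspa8 was at -0.028 with cyclic loess and -0.034 with a common median only, Hsph1 was at -0.63 and Hspe1 at -0.30 within array set 1, Hsp90aa1 was at 0.16, Hspb1 at 0.56 and Dnajb1 at 0.060 within array set 2, and Hspa1a was at 0.048 and Dnajb1 at 0.037 without both named tumours. Leaving out 1 tumour at a time, Twist cKO minus KPC ran from -0.25 to 0.27 for Dnajb1, -0.61 to 0.70 for Hspb1, -0.18 to 0.24 for Hspe1 and -0.57 to 0.46 for Hsph1. Snail cKO minus KPC ran from -0.031 to 0.27 for Hspa5, -0.55 to 0.044 for Hspb1 and -0.33 to 0.34 for Hsph1. Snail cKO minus Twist cKO ran from -0.42 to 0.091 for Dnajb1, -0.36 to 0.35 for Hsp90aa1, -0.46 to 0.048 for Hspa1a, -0.93 to 0.37 for Hspb1 and -0.53 to 0.49 for Hsph1. With a common median only, the median difference of all genes in Twist cKO against KPC moved from -0.066 to 0.063 log2. Signals near background, such as those of Hspa5 and the dim probes, limit what could be detected.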
